A study of Rattus norvegicus with 22 samples.

Results

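The difference in signal between tumor and contralateral brain of the same rat was compared between animals that had received synchrotron microbeam radiation therapy (MRT) and untreated animals. MRT splits a synchrotron X-ray beam into parallel micrometre-wide beams, so that narrow stripes of tissue receive the peak dose and the stripes between them receive only the lower valley dose. All 22 arrays of the series entered the comparison, as 11 rats with a tumor array and a contralateral array each: 6 MRT rats (MRT tumor and MRT contralateral brain) and 5 untreated rats (untreated tumor and untreated contralateral brain). For each of 31042 probe sets of the rat Affymetrix array, log2 tumor signal minus log2 contralateral signal was taken within each rat, and the 6 MRT differences were set against the 5 untreated differences. A negative value of this comparison, called here the change in tissue difference, means that the response to MRT was lower in tumor than in brain, and a positive value means that it was higher in tumor than in brain.

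Every rat was a Fischer rat that carried 9L cells, a rat gliosarcoma line, in the right caudate nucleus, so the contralateral tissue of both groups came from a tumor-bearing brain. The MRT rats were irradiated from one side 10 days after implantation, with 400 Gy in the microbeam paths and 18 Gy in the valleys at the tumor. The arrays describe tissue taken 6 hours after irradiation as micropunches of brain sections. The 9L tumor is a graft of a single cultured line, the value of the dose in the contralateral punch was not given separately in the sources used here, the labels name no sham procedure for the untreated rats, and the study says that its animals came from 2 experimental sessions, which the sources used here do not assign to samples, so the session was not tested. In such bulk tissue, fewer cells of a type and less RNA per cell cannot be told apart.

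Ionizing radiation breaks DNA and activates p53, which switches on genes for cell cycle arrest and apoptosis, while a checkpoint before mitosis holds damaged dividing cells back. In brain, injury also activates microglia, astrocytes and endothelial cells, which then make chemokines, adhesion molecules, interferon-stimulated proteins and the molecules that present antigens. A separate stress pathway runs through ATF4, a transcription factor made when amino acids are scarce or protein synthesis is impaired, which induces genes for amino acid uptake and metabolism.

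The labelled tissues were told apart by their transcripts. In a list of 34 genes of G2 phase and mitosis, the mean log2 level per array lay between 8.98 and 9.92 in MRT tumor, 9.57 and 10.97 in untreated tumor, 6.19 and 6.56 in MRT contralateral brain and 6.33 and 6.71 in untreated contralateral brain. Neuron transcripts were nevertheless present in the tumor punches: for 20 neuron markers the mean level lay between 10.37 and 11.79 in MRT tumor, 10.20 and 11.19 in untreated tumor, 11.72 and 12.41 in MRT contralateral brain and 11.71 and 12.28 in untreated contralateral brain. The median neuron marker was lower in tumor than in brain by a log2 difference of -1.02 in MRT rats and -1.10 in untreated rats, none of the 20 had a called change in tissue difference, and the part of brain RNA in the tumor values was not tested. A pair of rats stood apart from their groups. The contralateral array of MRT rat 7 had a median correlation of 0.979 with the other arrays of its group, against 0.988 to 0.993 for the others, and its tumor array had 0.967 against 0.979 to 0.986. The tumor array of untreated rat 5 had 0.967 against 0.975 to 0.986. Values without them are given wherever a count or a call moved.

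MRT and untreated rats differed in tissue difference for 205 probe sets at a false discovery rate of 5% (limma with Benjamini-Hochberg adjustment), which is 0.66% of those tested. In 180 of them (0.58%) the tumor response was the lower, and in 25 (0.0805%) it was the higher. An unadjusted p under 0.05 was reached by 1791 probe sets. The median change in tissue difference over all probe sets was 0.01. The rats of the groups did not overlap in 163 of the 180 and in 22 of the 25, against 377 (1.21%) of all probe sets. The total ranged from 138 without MRT rat 9 to 292 without MRT rat 7. The 180 negative calls became 119 without MRT rat 9, and the 25 positive calls became 14 without untreated rat 2, 16 without MRT rat 6, 16 without MRT rat 10 and 46 without MRT rat 7. With untreated rat 5 and MRT rat 7 both left out, 425 probe sets were called (74 positive and 351 negative), 192 of them among the 205.

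The negative calls were mostly rises in brain that the tumor did not match. Of the 180, 84 had a brain response of at least 0.5 on the log2 scale with a tumor response within 0.5 of no change, 72 had a response of at least 0.5 upward in both tissues that was larger in brain, 17 had a fall of at least 0.5 in tumor with brain within 0.5, 5 had a rise in brain and a fall in tumor, and 2 stayed within 0.5 in both. Their median response was 0.34 in tumor and 1.72 in brain, against 0.00 and -0.02 over all probe sets. The 25 positive calls were mostly rises in tumor: 16 had a tumor response of at least 0.5 with brain within 0.5, 4 rose in tumor and fell in brain, 2 fell in brain with tumor within 0.5, 2 rose in both with the larger rise in tumor, and 1 stayed within 0.5 in both. Their median response was 1.01 in tumor and -0.04 in brain. These tissue responses are parts of the same difference and come from the same arrays, so they describe it and add no separate evidence. Tested tissue by tissue, 184 probe sets (0.593%) were higher and 101 (0.325%) lower in MRT tumor than in untreated tumor, and 888 (2.86%) were higher and 384 (1.24%) lower in MRT than in untreated contralateral brain. Without MRT rat 7, 297 were higher and 182 lower in tumor, and 1235 higher and 751 lower in brain. Without untreated rat 5, 279 were higher and 185 lower in tumor. Leaving out untreated rat 2, 3 or 4 or MRT rat 6 or 10 left 94 to 117 higher and 38 to 57 lower in tumor, and leaving out MRT rat 8 left 120 higher. In brain, 229 were lower without untreated rat 2 and 248 without MRT rat 11.

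**Figure D1:**
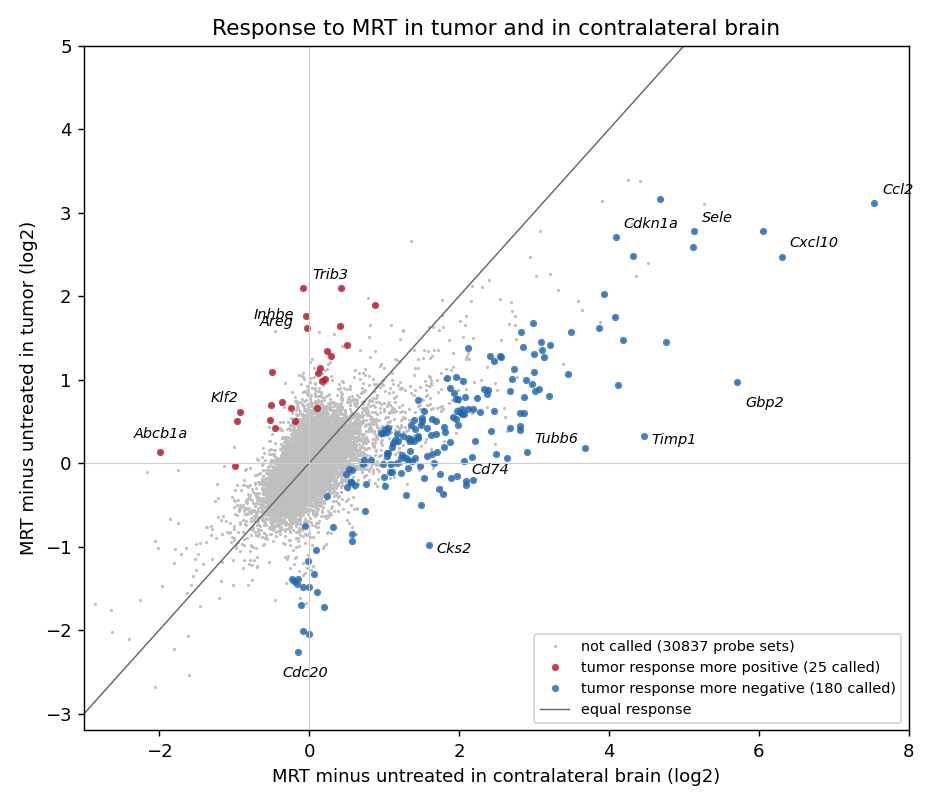
Response to MRT in tumor (vertical axis) against response in contralateral brain (horizontal axis), both as log2 MRT minus log2 untreated means, for all 31042 probe sets, with the 205 called ones in colour and selected genes named. The diagonal marks an equal response: the 180 negative calls lie below it, most of them to the right where brain rose, and the 25 positive calls lie above it.

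The interferon-stimulated genes held the largest change of all. Gbp2, a guanylate-binding GTPase induced by interferons, had a tumor minus brain difference of -0.36, -0.01 and 0.51 in MRT rats (lowest, median and highest), against 5.15, 4.71, 4.17, 4.97 and 4.83 in untreated rats 1 to 5. Every untreated rat had far more Gbp2 in tumor than in brain, MRT rats had about equal amounts, and the groups were wide apart. The change was -4.74 ± 0.19 (SE, adjusted p = 2.75e-08), made of a brain response of 5.72 (adjusted p = 9.85e-09) and a tumor response of 0.97 that did not pass by itself (adjusted p = 0.159). In the linear signal, Gbp2 averaged 5412 ± 1655 in MRT tumor and 2622 ± 384 in untreated tumor, and 5233 ± 1473 in MRT brain and 98.6 ± 26.4 in untreated brain (SD, n = 6 MRT and 5 untreated rats). Irf1, the transcription factor that switches on many interferon-stimulated genes, changed by -2.39 ± 0.19 (adjusted p = 4.93e-05), with 0.22 as the median difference in MRT rats and 3.25, 2.71, 2.59, 2.14 and 2.60 in untreated rats.

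Further members of the same family moved the same way. Of 12 measured interferon regulatory factors, STATs and interferon-induced GTPases, 4 were called (Gbp2, Irf1, Igtp and Irf8), all negative, against 0.58% of all probe sets, all 12 estimates were below 0, and the median was -0.77. Here and in the lists below, each gene is its brightest probe set, whereas 0.58% is the share over all probe sets, dim ones included. In a fit of only the 15521 probe sets with a mean level above the median, 179 were called negative and 24 positive. Of 25 antiviral interferon-stimulated genes, 5 were called, all negative, 24 estimates were below 0 and the median was -0.58. Among them were the membrane proteins Ifitm1 (-2.38 ± 0.29, adjusted p = 0.00164) and Ifitm3 (-2.27 ± 0.24, adjusted p = 0.000708), which block virus entry, and G1p2, the older symbol of the ubiquitin-like modifier Isg15 (-2.02 ± 0.31, adjusted p = 0.00617). Untreated rat 5 had the highest G1p2 difference of its group, 4.42 against 2.35 to 2.82 in the others. The ADP-ribosyltransferase Parp14 (-1.47 ± 0.27, adjusted p = 0.0197) lost its call in 7 of the 11 fits that left out a rat, with an adjusted p of up to 0.0655 (without untreated rat 2); it was also lost without untreated rat 1 and MRT rats 6, 8, 9, 10 and 11.

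Promoter sequences are shown for some negatively called genes because a known element, the interferon-stimulated response element, can be read in them. Among the interferon-related genes named above, a match before the gene's start was found only for Gbp2, Igtp, Ifitm3 and Parp14. Cxcl10 and Tap2, also shown, belong to other lists. The letters GAAANNGAAA, in which N is any base, were searched on both strands in RefSeq windows from 250 bases before to 50 bases after each gene's start (build GRCr8). They occurred in 14 of 98 windows of negatively called genes (14.29%) and in 0 of 17 windows of positively called genes, against 2.96% of the windows of 10355 tested genes and 3.77% of all 27457 windows. A match is a description of the letters, not a binding site. In the stretches below, each read 5′ to 3′ along the gene's strand and lying before its start, capitals mark the match, which in Gbp2 is on the opposite strand.
Gbp2 (chr2:234005667-234005726, + strand): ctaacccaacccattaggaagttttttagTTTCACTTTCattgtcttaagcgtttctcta
Cxcl10 (chr14:15988816-15988875, + strand): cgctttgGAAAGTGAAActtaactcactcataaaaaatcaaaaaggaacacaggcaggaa
Igtp (chr10:42874919-42874978, + strand): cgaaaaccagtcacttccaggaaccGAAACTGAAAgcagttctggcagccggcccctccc
Ifitm3 (chr1:205541768-205541827, - strand): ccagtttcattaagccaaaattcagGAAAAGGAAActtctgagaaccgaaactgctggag
Tap2 (chr20:4652303-4652362, - strand): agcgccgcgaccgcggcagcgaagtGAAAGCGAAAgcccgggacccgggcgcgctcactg

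MHC class II genes were among those that rose in brain. Of 7 measured genes of MHC class II, the molecules that show peptides to helper T cells, 5 were higher in MRT than in untreated brain and 0 in MRT than in untreated tumor. For 5 the change in tissue difference was called, all negative, against 0.58% of all probe sets. The median over the 7 was -2.04, with a median response of -0.15 in tumor and 1.79 in brain. Cd74, the invariant chain that guides class II molecules through the cell, had a difference of 1.40, 1.69 and 2.33 in MRT rats (lowest, median and highest), against 3.81, 3.19, 3.37, 3.85 and 4.78 in untreated rats. The groups did not overlap, and tumor remained above brain in every rat of both groups. Its change was -2.04 ± 0.26 (adjusted p = 0.00207), with a response of 0.03 in tumor (adjusted p = 0.996) and 2.07 in brain (adjusted p = 4.19e-05). The class II chain H2-Ea, now named RT1-Da, changed by -2.40 ± 0.35 (adjusted p = 0.00494). RT1-Db1 (-2.16 ± 0.39, adjusted p = 0.0194) and RT1-Bb (-2.12 ± 0.42, adjusted p = 0.0342), class II beta chains, had calls that depended on single rats. RT1-Db1 was lost without untreated rat 3 or MRT rat 6, 8, 9 or 11 (adjusted p up to 0.0615), and RT1-Bb was lost without any rat other than untreated rat 5 or MRT rat 7 (up to 0.100, without MRT rat 6).

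Of 16 measured genes of MHC class I and the immunoproteasome, which cut and load peptides for cytotoxic T cells, 8 were higher in MRT than in untreated brain and 1 in MRT than in untreated tumor. For 6 the change was called, all negative, against 0.58% of all probe sets, with a median of -0.62 over the list. The proteasome subunit Psmb9 had differences of 1.02, 1.41 and 3.21 in MRT rats (lowest, median and highest), against 4.63, 4.22, 4.26, 4.17 and 3.84 in untreated rats. The highest MRT value belonged to rat 7, and without it the MRT rats lay between 1.02 and 1.59. The change was -2.58 ± 0.32 (adjusted p = 0.00182), with a tumor response of 0.07 and a brain response of 2.65 (adjusted p = 1.22e-05). The partner subunit Psmb8 changed by -1.52 ± 0.25 (adjusted p = 0.0118). The peptide transporter subunits Tap1 (-1.54 ± 0.30, adjusted p = 0.0305) and Tap2 (-1.0 ± 0.18, adjusted p = 0.0177) were called less firmly. Tap1 was lost without untreated rat 1, 2 or 3 or MRT rat 6, 8, 9, 10 or 11 (up to 0.0890, without untreated rat 1), and Tap2 without untreated rat 2 or MRT rat 6, 8 or 9 (up to 0.0567).

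Further genes among the named ones rose in brain, with tumor responses that did not pass the test. Timp1, the secreted inhibitor of matrix metalloproteinases, had a difference of 1.21, 1.60 and 3.42 in MRT rats, against 6.17, 5.98, 5.45, 6.53 and 5.78 in untreated rats. Tumor was above brain in all 11 rats, and the gap narrowed in MRT rats with no overlap, least in rat 7, which had the 3.42. The change was -4.13 ± 0.34 (adjusted p = 5.14e-05), with a tumor response of 0.33 (adjusted p = 0.491) and a brain response of 4.46 (adjusted p = 4.3e-06). Tubb6, a beta-tubulin of low abundance in adult brain, changed by -2.76 ± 0.17 (adjusted p = 5.37e-06), with 2.27, 2.63 and 2.75 in MRT rats and 5.82, 5.23, 5.25, 5.44 and 4.81 in untreated rats. Tgm2, a transglutaminase that crosslinks matrix proteins, changed by -2.42 ± 0.21 (adjusted p = 7.8e-05). The small heat shock protein Hspb1 (-1.52 ± 0.20, adjusted p = 0.00279) and its co-chaperone partner Bag3 (-1.44 ± 0.20, adjusted p = 0.0034) were the only called members among 14 heat shock genes, against 0.58% of all probe sets. The hyaluronan receptor Cd44, listed here as an astrocyte marker and also made by many tumor cells, changed by -1.45 ± 0.17 (adjusted p = 0.00142), with responses of 0.79 in tumor (adjusted p = 0.0672) and 2.24 in brain (adjusted p = 4.13e-05), and none of the other 15 astrocyte markers was called.

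**Figure D2:**
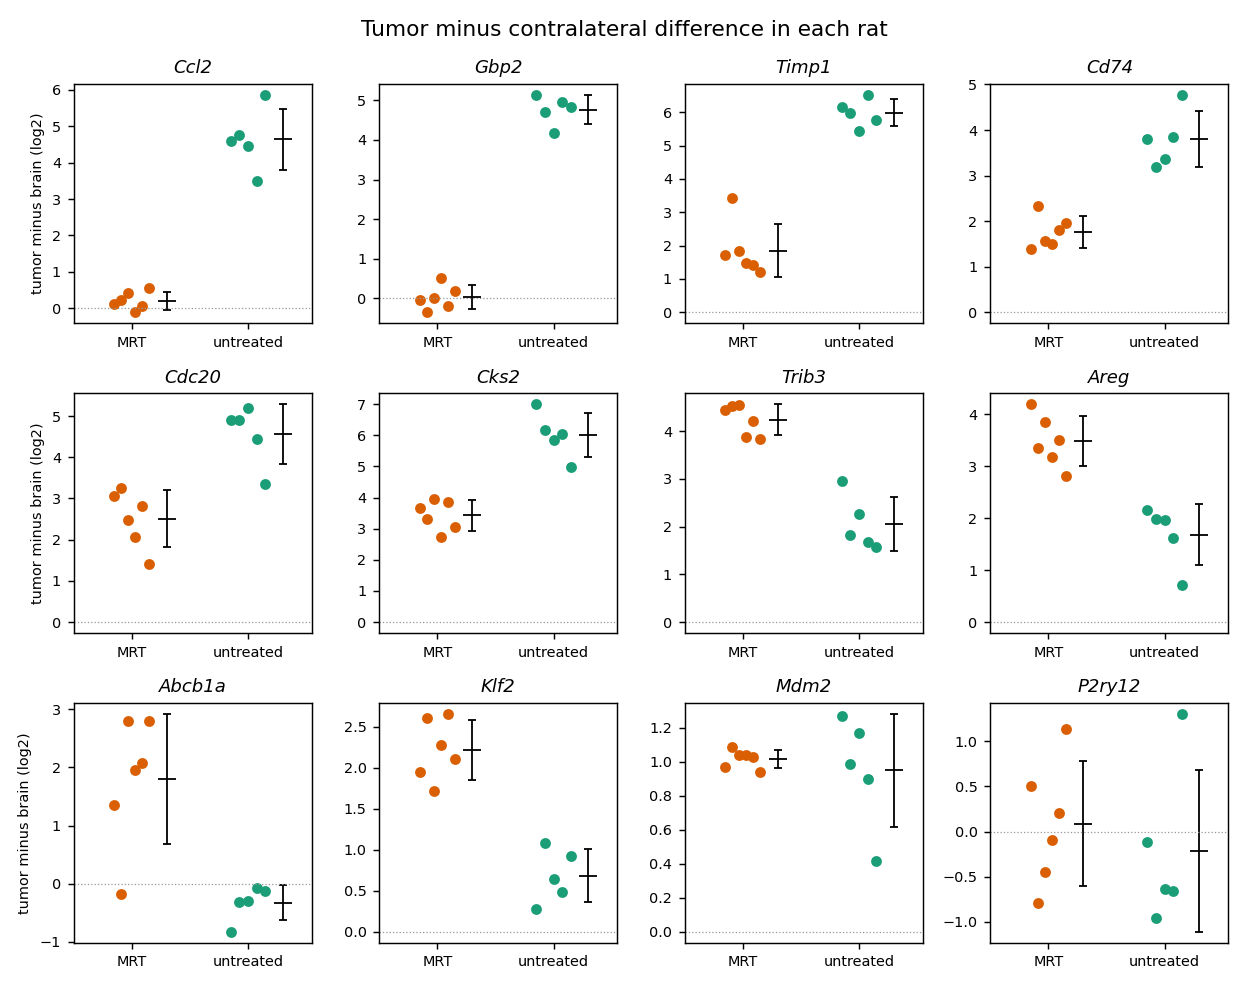
Log2 tumor minus contralateral difference in each rat for 12 named genes, with MRT rats (6, orange) to the left of untreated rats (5, green) and the mean ± SD as a black mark. Gbp2 and Ccl2 lie near 0 in MRT rats and above 3 in every untreated rat, while Trib3 and Areg are higher in every MRT rat than in any untreated rat and Mdm2 and P2ry12 overlap.

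Of 16 measured CC chemokines, 5 were higher in MRT than in untreated tumor and 10 in MRT than in untreated brain, and of 14 CXC chemokines 5 were higher in tumor and 7 in brain. The change in tissue difference was called for 4 of each kind, all 8 negative, against 0.58% of all probe sets. The medians were -0.85 over the CC and -0.26 over the CXC chemokines. Ccl2, which attracts monocytes, had a difference of -0.11, 0.17 and 0.56 in MRT rats, against 4.59, 4.76, 4.47, 3.50 and 5.87 in untreated rats. The untreated tumor held much more Ccl2 than the brain across from it, and in MRT rats the tissues were almost level. The change was -4.42 ± 0.31 (adjusted p = 1.45e-05), with a rise of 3.12 in tumor (adjusted p = 0.00102) and 7.54 in brain (adjusted p = 1.81e-12). Cxcl10, an interferon-induced attractant of T cells, had -1.35, -0.80 and -0.54 in MRT rats, against 2.12, 3.14, 2.25, 2.23 and 4.91 in untreated rats. It lay above 0 in every untreated rat and below 0 in every MRT rat, so the tissue with more Cxcl10 was the tumor in untreated rats and the brain in MRT rats. The change was -3.85 ± 0.42 (adjusted p = 0.000784). Cxcl11, a ligand of the same receptor, turned likewise (-3.28 ± 0.47, adjusted p = 0.00375), with -1.88, -1.41 and -1.03 in MRT rats and 1.23, 1.78, 1.25, 0.90 and 4.13 in untreated rats.

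The other called chemokines were Ccl4 (-2.25 ± 0.39, adjusted p = 0.0141), Ccl5 (-1.91 ± 0.33, adjusted p = 0.0163), Ccl7 (-1.52 ± 0.27, adjusted p = 0.0182), the membrane-anchored Cxcl16 (-1.92 ± 0.29, adjusted p = 0.00609) and the neutrophil attractant Cxcl1 (-1.84 ± 0.35, adjusted p = 0.030). Untreated rat 5 stood above its group for several of these, with a Ccl4 difference of 3.35 against 0.70 to 1.28 in the other untreated rats. Ccl5 was lost without untreated rat 2 or 3 or MRT rat 6 (up to 0.0538), Ccl7 without untreated rat 3 or MRT rat 8, 9 or 10 (up to 0.0557), and Cxcl1 without untreated rat 1 or 2 or MRT rat 6, 8, 9, 10 or 11 (up to 0.0940, without untreated rat 2).

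Of 10 endothelial adhesion genes, 2 were called, Icam1 and Sele, both negative, against 0.58% of all probe sets. Among the 10, 5 estimates were below 0 and the median was 0.01. Icam1, which leukocytes grip on activated vessels, had -0.59, -0.04 and 0.29 in MRT rats, against 2.22, 1.40, 1.44, 1.33 and 2.62 in untreated rats, a change of -1.91 ± 0.26 (adjusted p = 0.00279) with no overlap. Icam1 rose in both tissues, by 2.03 in tumor (adjusted p = 0.00143) and 3.94 in brain (adjusted p = 7.27e-08). Sele, the selectin that slows leukocytes on endothelium, had -2.86, -1.88 and -0.12 in MRT rats, against 0.86, 0.83, 0.45, 0.76 and -0.13 in untreated rats. The groups met at one rat each, and the change was -2.35 ± 0.39 (adjusted p = 0.0121), with rises of 2.79 in tumor (adjusted p = 0.00276) and 5.14 in brain (adjusted p = 2.2e-08). Its untreated signals, 26.0 in tumor and 17.8 in brain, were near the lowest on the array, so the size of these log2 values depends on the low end of the scale, and the call was lost when signals below the 25th percentile (58) were raised to it (-1.80, adjusted p = 0.194). The endothelial receptor Cd93 changed by -1.54 ± 0.20 (adjusted p = 0.00232). Of 12 NF-kB subunits and feedback genes 5 were called, all negative, against the same 0.58%, with a median of -0.73 over the list. Among the 5 were the inhibitor Nfkbia (-1.25 ± 0.13, adjusted p = 0.000518) and the nuclear co-regulator Bcl3 (-1.80 ± 0.22, adjusted p = 0.00178). The apoptosis inhibitor Birc3 (-1.31 ± 0.27, adjusted p = 0.0436) was lost without untreated rat 1, 2 or 3 or MRT rat 6, 8, 9, 10 or 11 (up to 0.118, without untreated rat 2).

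Single genes of other lists were called negative as well. The AP-1 partner Maff changed by -2.72 ± 0.20 (adjusted p = 2.63e-05), with -0.02, 0.07 and 0.40 in MRT rats and 2.92, 3.23, 3.34, 2.05 and 2.63 in untreated rats. Ptges, the synthase of prostaglandin E2, changed by -2.54 ± 0.21 (adjusted p = 4.93e-05) and was higher in brain than in tumor in every MRT rat. The transcription factor Cebpd (-1.90 ± 0.19, adjusted p = 0.000394), the metal-binding metallothioneins Mt1a (-1.61 ± 0.24, adjusted p = 0.00594) and Mt2A (-1.46 ± 0.19, adjusted p = 0.00211) and the mRNA-decay protein Zfp36 (-1.69 ± 0.28, adjusted p = 0.0118) changed in the same direction. Il1b, the cytokine interleukin-1 beta, had an estimate of -2.12 ± 0.50 that missed the threshold (adjusted p = 0.0967), with untreated rat 5 at 3.73 and the other untreated rats at 0.27 to 0.85. It was called without untreated rat 5 (-1.5, adjusted p = 0.00177).

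The p53 targets split. Of 24 measured, 5 were called, all negative, against 0.58% of all probe sets, but the median was -0.07 and 17 estimates were below 0. Of the 24, 9 were higher in MRT than in untreated tumor and 14 in MRT than in untreated brain. Fas, the death receptor, had -0.05, 0.21 and 0.37 in MRT rats, against 1.79, 1.81, 1.82, 2.01 and 1.79 in untreated rats, a change of -1.65 ± 0.11 (adjusted p = 1.45e-05), with rises of 1.45 in tumor (adjusted p = 0.00536) and 3.09 in brain (adjusted p = 1.5e-06). The untreated rats differed by less than 0.25 among themselves, and all were above every MRT rat. Phlda3, an inhibitor of Akt signalling, changed by -1.45 ± 0.17 (adjusted p = 0.00108). Cdkn1a, the inhibitor p21 that stops the cell cycle, rose by 2.71 in tumor (adjusted p = 7.53e-05) and 4.09 in brain (adjusted p = 1.48e-08), with a change of -1.38 ± 0.28 (adjusted p = 0.0447). That call was lost without untreated rat 2, 3 or 5 or MRT rat 6, 7, 8, 9 or 10 (up to 0.123, without untreated rat 2). The growth-arrest gene Gadd45a (-0.82 ± 0.15, adjusted p = 0.0252) was lost without untreated rat 2 or 4 or MRT rat 6, 9 or 11 (up to 0.0746, without MRT rat 6).

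Mdm2, the ligase that degrades p53, rose by almost the same amount in both tissues: 1.24 in tumor (adjusted p = 0.00107) and 1.17 in brain (adjusted p = 1.47e-05). Its difference was 0.94, 1.04 and 1.09 in MRT rats, against 1.27, 0.99, 1.17, 0.90 and 0.42 in untreated rats. The groups overlapped, and the change was 0.07 ± 0.14 with a 95% interval of -0.24 to 0.38, which does not reach the change of Fas. Gdf15, a secreted stress factor and p53 target, went the other way with an estimate of 1.30 ± 0.35 (adjusted p = 0.211), and its rise was 2.66 in tumor and 1.36 in brain.

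Genes of mitosis were lower in MRT tumor and low in brain throughout: 7 of the list passed as lower in tumor, 2 as lower and 1 as higher in brain. Of 34 measured genes of G2 phase and mitosis, 8 were called, all negative, against 0.58% of all probe sets. Of the estimates, 32 were below 0, and the median was -0.92, with a median response of -0.88 in tumor and -0.12 in brain. Cdc20, which activates the ligase that starts anaphase, had 1.41, 2.65 and 3.25 in MRT rats, against 4.91, 4.90, 5.19, 4.44 and 3.36 in untreated rats. Its signal averaged 764 ± 375 in MRT tumor and 3040 ± 1047 in untreated tumor, and 124.5 ± 30 in MRT brain and 121.6 ± 12.6 in untreated brain (SD, n = 6 and 5). The groups did not overlap, tumor stayed above brain in every rat, and the change was -2.05 ± 0.36 (adjusted p = 0.0177), with a fall of 2.05 on the log2 scale in tumor (response -2.05, adjusted p = 0.0201) and 0.00 in brain. The call was lost without untreated rat 1, 2 or 3 or MRT rat 9 (up to 0.0655, without untreated rat 2). Traf4af1, now named Knstrn, a kinetochore protein, changed by -1.93 ± 0.30 (adjusted p = 0.00813) and fell in tumor (-1.72, adjusted p = 0.0313).

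Fam64a, now Pimreg, which is highest in dividing cells, changed by -1.93 ± 0.37 (adjusted p = 0.0281) and was lost without untreated rat 1, 2, 3 or 4 or MRT rat 6, 8, 9, 10 or 11 (up to 0.0966, without untreated rat 2). The other called members were Ckap2 and, beyond the rule for named genes, Aurka, Ccnb1, Plk1 and Kpna2, each with an estimate between -1.43 and -1.13 for its brightest probe set. Another Ccnb1 probe set was called at -1.59. Ckap2, a spindle protein, was lost without untreated rat 1, 2, 3 or 4 or MRT rat 6, 9 or 11 (up to 0.0807, without untreated rat 2). Its response was 0.58 in brain (adjusted p = 0.0167) and -0.85 in tumor, which did not pass by itself (adjusted p = 0.298). In contrast, 0 of 28 genes of DNA replication and repair were called, and their median was 0.03. Cks2, a binding partner of cyclin-dependent kinases, shared the pattern of Ckap2. It rose in brain by 1.60 (adjusted p = 6.6e-05) with a tumor response of -0.98 that did not pass by itself (adjusted p = 0.193). Its difference was 2.72, 3.49 and 3.95 in MRT rats, against 6.99, 6.16, 5.84, 6.04 and 4.99 in untreated rats, a change of -2.58 ± 0.31 (adjusted p = 0.00145) with no overlap. The mean signal was 2402 ± 691 in MRT tumor and 4809 ± 1662 in untreated tumor, and 219.7 ± 51.5 in MRT brain and 72.4 ± 17.1 in untreated brain.

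The genes whose response was the higher in tumor included many of the ATF4 stress pathway. Of 32 measured genes, 7 were called, 6 of them positive against 0.0805% of all probe sets, 25 estimates were above 0, and the median was 0.33, with a median response of 0.52 in tumor and 0.03 in brain. Trib3, a pseudokinase that feeds back on ATF4, had 3.84, 4.33 and 4.55 in MRT rats, against 2.96, 1.82, 2.27, 1.68 and 1.57 in untreated rats. Every MRT rat was above every untreated rat. The change was 2.18 ± 0.24 (adjusted p = 0.000798), with a rise of 2.10 in tumor (adjusted p = 0.00156) and a response of -0.08 in brain (adjusted p = 0.94), and the mean signal was 1315 ± 349 in MRT tumor and 312.4 ± 105.8 in untreated tumor, and 68.5 ± 12.7 in MRT brain and 72.8 ± 16.1 in untreated brain. A brighter Trib3 probe set gave a smaller change of 1.23 ± 0.21 (adjusted p = 0.0141).

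Slc7a1, a carrier of cationic amino acids, changed by 1.21 ± 0.14 (adjusted p = 0.000901), with 0.87, 0.96 and 1.40 in MRT rats and 0.13, -0.11, -0.15, -0.36 and -0.22 in untreated rats. Its signal was about equal in the untreated tissues, at 1563 ± 219 in tumor and 1727 ± 257 in brain. Chac1, which breaks down glutathione, changed by 1.00 ± 0.14 (adjusted p = 0.0034), with a rise of 1.15 in tumor (adjusted p = 0.00304) and a response of 0.15 in brain. Inhbe, the inhibin beta E chain, rose by 1.62 in tumor (adjusted p = 0.021) with -0.02 in brain, a change of 1.64 ± 0.31 (adjusted p = 0.0248), and Nupr1, a small stress-induced nuclear protein, changed by 1.59 ± 0.28 (adjusted p = 0.0179). Both had no overlap between the groups, yet Inhbe was lost without untreated rat 2 or 4 or MRT rat 6, 8, 9 or 10 (up to 0.0741, without MRT rat 6) and Nupr1 without untreated rat 1, 2 or 3 or MRT rat 9 or 10 (up to 0.0603, without untreated rat 2). The exception in the list was Atf3, a transcription factor that ATF4 induces but that inflammation and p53 also induce in other settings, which changed by -2.33 ± 0.38 (adjusted p = 0.010) with a brain response of 4.08 (adjusted p = 8.05e-08). Of 19 aminoacyl-tRNA synthetases, which charge tRNAs with amino acids and include known ATF4 targets, 0 were called by their brightest probe set and 16 estimates were above 0, with a median of 0.29. The brightest probe set of the cysteinyl-tRNA synthetase Cars gave 0.58 ± 0.14 (adjusted p = 0.121), while another was called at 0.80 ± 0.15 (adjusted p = 0.0242).

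The promoters of Trib3, Slc7a1, Chac1, Inhbe and Nupr1 are shown because they hold the letters of the element that ATF4 binds together with C/EBP proteins. TGATGNAA, with N any base, searched on both strands in the same windows, occurred in 6 of 17 windows of positively called genes (35.29%) and in 1 of 98 windows of negatively called genes (1.02%, Bcl2a1), against 2.27% of the windows of tested genes and 3.82% of all windows. The element was chosen with this pathway in view, the windows are few, and a match is not a binding site. Capitals mark the match, which is on the gene's strand in Slc7a1 and on the opposite strand in the others.
Trib3 (chr3:161275534-161275593, - strand): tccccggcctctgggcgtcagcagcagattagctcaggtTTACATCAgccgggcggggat
Slc7a1 (chr12:11664428-11664487, + strand): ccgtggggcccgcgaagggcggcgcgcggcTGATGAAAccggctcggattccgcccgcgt
Chac1 (chr3:126795938-126795997, + strand): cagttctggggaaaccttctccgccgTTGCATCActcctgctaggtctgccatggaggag
Inhbe (chr7:65064710-65064769, - strand): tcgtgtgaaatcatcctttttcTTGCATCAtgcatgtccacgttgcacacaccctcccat
Nupr1 (chr1:190645923-190645982, - strand): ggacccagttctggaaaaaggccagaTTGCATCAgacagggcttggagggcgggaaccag

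A pair of ligands of the EGF receptor had positive calls. Areg, amphiregulin, had 2.82, 3.43 and 4.19 in MRT rats, against 2.15, 1.99, 1.96, 1.62 and 0.71 in untreated rats, a change of 1.80 ± 0.28 (adjusted p = 0.00725). It rose by 1.76 in tumor (adjusted p = 0.0133), where its mean signal was 297.8 ± 76.6 in MRT and 91.8 ± 33.9 in untreated rats, while in brain it stayed at the low end of the array with 26.0 ± 3.0 in MRT and 26.6 ± 1.7 in untreated rats. Hbegf, a second ligand of that receptor, rose in both tissues, by 1.90 in tumor (adjusted p = 0.000344) and 0.88 in brain (adjusted p = 0.00203), a change of 1.01 ± 0.15 (adjusted p = 0.00518). They were the only positive calls among 17 genes of EGF receptor ligands and VEGF signaling, against 0.0805% of all probe sets. The median of the 17 was -0.02 with 11 estimates below 0. The vessel-destabilising ligand Angpt2 went the other way (-1.46 ± 0.30, adjusted p = 0.0445), and its call was lost without untreated rat 1, 2, 3 or 4 or MRT rat 6, 8, 9, 10 or 11 (up to 0.139, without untreated rat 2).

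A few positive calls came from a fall in brain. Abcb1a, the efflux pump P-glycoprotein of brain capillaries, had -0.18, 2.02 and 2.80 in MRT rats, against -0.83, -0.31, -0.29, -0.07 and -0.13 in untreated rats. MRT rat 7, at -0.18, lay among the untreated rats, and the other MRT rats were all above 1. The mean signal was 299.8 ± 86.3 in MRT tumor and 267.4 ± 58.3 in untreated tumor, and 94.8 ± 60.1 in MRT brain and 336.4 ± 78.1 in untreated brain, so that the fall was in brain (-1.99, adjusted p = 0.0019) with a tumor response of 0.13 (adjusted p = 0.977). The change of 2.12 ± 0.44 only just passed (adjusted p = 0.0469), it was lost when any rat other than MRT rat 7 was left out (up to 0.126, without untreated rat 2), and a brighter probe set of the gene gave 2.05 with an adjusted p of 0.106. Klf2, a transcription factor that keeps endothelium quiescent under blood flow, had 1.72, 2.19 and 2.65 in MRT rats, against 0.28, 1.08, 0.65, 0.49 and 0.93 in untreated rats, a change of 1.53 ± 0.20 (adjusted p = 0.00211), with a fall in brain (-0.92, adjusted p = 0.0108) and a tumor response of 0.61 (adjusted p = 0.217). Apln, the endothelial ligand apelin, fell in brain (-0.99, adjusted p = 0.00767) with -0.03 in tumor, a change of 0.96 ± 0.19 (adjusted p = 0.0333) that was lost without untreated rat 1, 3, 4 or 5 or MRT rat 6, 8, 9, 10 or 11 (up to 0.0974, without MRT rat 6).

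Few barrier genes and no microglial genes of the lists had a called change. Of 15 barrier and transport genes, 8 were lower in MRT than in untreated brain and 5 in MRT than in untreated tumor, but 1, the large neutral amino acid carrier Slc7a5, had a called change (0.87 ± 0.18, adjusted p = 0.0466), and that call was lost when any rat other than MRT rat 7 was left out (up to 0.144, without untreated rat 2). Slco1a4, an organic anion carrier of brain capillaries, fell in both tissues, with -1.76 in tumor (adjusted p = 0.00431) and -2.64 in brain (adjusted p = 4.96e-05), and its change of 0.88 ± 0.30 had an adjusted p of 0.479 and a 95% interval of 0.24 to 1.52. Of 12 homeostatic microglia genes 0 were called, and 8 were lower in MRT brain and 3 in MRT tumor. P2ry12, the purinergic receptor by which resting microglia sense injury, fell by 2.11 on the log2 scale in tumor (response -2.11, adjusted p = 0.0129) and 2.41 in brain (response -2.41, adjusted p = 6.63e-06). Its change was 0.30 ± 0.41 with a 95% interval of -0.58 to 1.17, so a change of either sign within it was not detectable with these rats. Tmem119 had an estimate of 1.66 ± 0.35 just outside the threshold (adjusted p = 0.0548), and it was called without untreated rat 1 (1.84, adjusted p = 0.0435) and without MRT rat 7 (1.87, adjusted p = 0.0122). This gene, known as a microglial marker, was far higher in tumor than in brain in every rat, with 4.29 as the lowest difference in MRT rats and 2.67 in untreated rats.

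**Figure D3:**
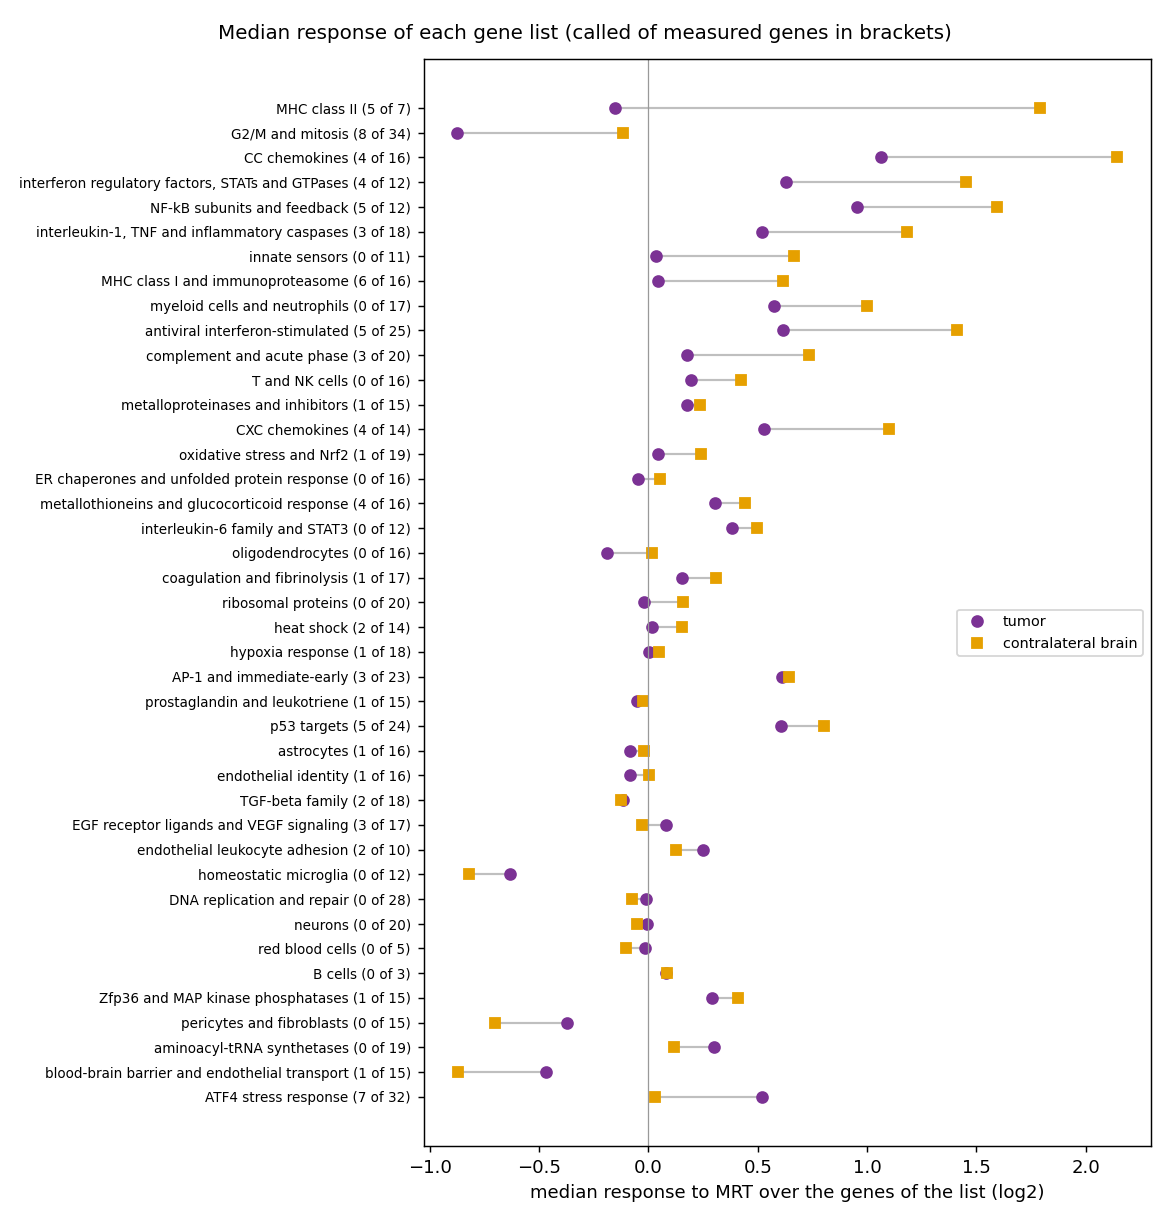
Median over each gene list of the response to MRT in tumor (circles) and in contralateral brain (squares), in log2 units, with the number of called changes in tissue difference of the number measured, lists being sorted by their median change. MHC class II has its tumor median at -0.15 and its brain median at 1.79, G2 phase and mitosis has -0.88 in tumor and -0.12 in brain, and the ATF4 list is among those with the tumor median to the right.

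The lists not yet described held few calls. Over all probe sets, 0.58% were called negative and 0.0805% positive. One negative call each was found among 18 hypoxia genes (the vasodilator Adm), 15 metalloproteinases and inhibitors (Timp1), 17 coagulation and fibrinolysis genes (Anxa2), 15 prostaglandin and leukotriene genes (Ptges), 15 genes of Zfp36 and MAP kinase phosphatases (Zfp36), 16 endothelial identity genes (Cd93) and 19 oxidative stress genes (Nfe2l2, the Nrf2 factor). Of 20 complement and acute phase genes 3 were called and of 18 interleukin-1, TNF and inflammatory caspase genes 3 were called, all negative, and the 23 early-response genes had 3 calls (Maff, Ier3 and Klf2) of mixed direction. The 16 metallothionein and glucocorticoid genes had 4 negative calls and the 18 TGF-beta family genes had 1 in each direction. There were 0 calls among 17 myeloid and neutrophil genes, 16 T and NK cell genes, 12 genes of the interleukin-6 family, 11 innate sensors, 16 ER chaperone genes and 20 ribosomal protein genes, and among the markers of oligodendrocytes (16), pericytes and fibroblasts (15), red blood cells (5) and B cells (3). Several of these lists still leaned to negative estimates. The median was -0.58 over the myeloid and neutrophil genes (15 of 17 below 0) and -0.62 over the innate sensors (9 of 11). It was -0.27 over the T and NK cell genes (12 of 16) and -0.195 over the interleukin-6 family (10 of 12). The ribosomal protein genes were all 20 below 0 with a median of -0.18. These lists were written with earlier results of the data known, so their counts describe them and are not an independent test.

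Most negative calls started higher in tumor. In untreated rats the tumor was more than 1 log2 unit above brain for 155 of the 180 (86.1%), against 9.5% of all probe sets, and more than 1 below brain for none of them. Counted from the other side, 155 of 2949 probe sets that started more than 1 higher in tumor were called negative (5.26%), 25 of 25410 that started within 1 (0.0984%), and 0 of 2683 that started more than 1 lower. The median difference of the 180 was 0.68 in MRT rats and 2.27 in untreated rats. The untreated arrays enter both the starting difference and the change, so these counts are not independent of the calls. Of 401 probe sets more than 3 higher in untreated tumor than in untreated brain, 59 were called negative (14.7%) and 0 positive, 110 had a brain response of at least 0.5 and 196 one within 0.25 of no change, with a median of 0.05.

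MRT brain reached or passed the untreated tumor mean in 65 of the 180 (36.1%, against 61.3% of all probe sets), and MRT tumor was still above MRT brain in 144 of them (80%, against 39.8%). The median level of the 180 was 9.75 in untreated tumor and 7.23 in untreated brain. An untreated brain mean below the 25th percentile of all signals (log2 5.86) was found for 28 of the 180 (15.6%, against 24.4% of all probe sets), and an untreated tumor mean above 13, where the highest signal was 15.16, for 6 (3.33%, against 1.5%). With signals below that percentile raised to it, 121 probe sets were called (100 negative) in place of 205 (180 negative), 106 of them among the 205, and 35 of the 79 called named probe sets lost their call, among them Cxcl11 (adjusted p = 0.0709), Sele (0.194), Cdkn1a (0.174), Cdc20 (0.111), Abcb1a (0.199), Inhbe (0.128), Nupr1 (0.105) and the brighter Trib3 probe set (0.0688).

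**Figure D4:**
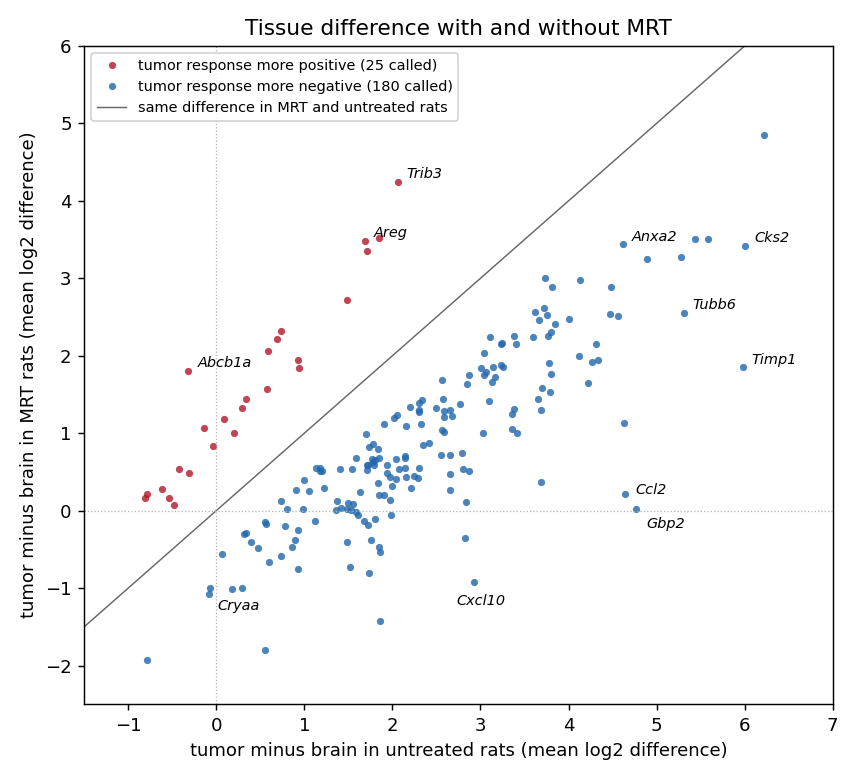
Tumor minus contralateral difference in MRT rats (vertical axis) against the same difference in untreated rats (horizontal axis), both log2 group means. Only the called probe sets are drawn, coloured by direction. Of the 180 negative calls, 155 start more than 1 to the right of 0 and lie below the diagonal, and 20 of the 25 positive calls start within 1 of 0 and lie above it.

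Most positive calls did not share this starting difference. Of the 25, 20 (80%) started within 1 log2 unit, against 81.9% of all probe sets, and the median difference was 1.44 in MRT rats and 0.29 in untreated rats. The remaining 5 (20%) started more than 1 higher in tumor, against 9.5% of all probe sets. Among them were Trib3 (2.06), Inhbe (1.71) and Areg (1.69). Responses that differed by tissue from a nearly equal start were found in both directions: 10 positive and 9 negative calls had an untreated difference within 0.5. The positive ones with a gene symbol were Abcb1a, Slc7a1 (both its probe sets), Amotl2, Apln, Slc7a5, RGD1566118, Cars and Dr1. Amotl2, an angiomotin-like protein of cell junctions, changed by 1.03 ± 0.17 (adjusted p = 0.00975). The negative ones included the lens crystallin Cryaa (-1.0 ± 0.17, adjusted p = 0.0143), with a brain response of 1.41 and a tumor response of 0.41, the secreted protein Crispld2 (-0.95 ± 0.20, adjusted p = 0.0447), the mTOR inhibitor Ddit4l (-0.79 ± 0.15, adjusted p = 0.0284), the cyclin-dependent kinase inhibitor Cdkn2d (-0.63 ± 0.12, adjusted p = 0.0317) and the NF-kB adaptor Tifa (-0.62 ± 0.13, adjusted p = 0.0439).

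In linear signal, the same responses ranked differently. For each of the 112 named probe sets, the MRT minus untreated change in signal was compared between tissues by an exact two-sided permutation test over all splits of the rats, whose smallest possible p is 0.0022, with p-values adjusted over the 112. The test passed for 47 of the 112, of which 38 were also called on the log2 scale. Most of the 112 were named for their log2 change in the same rats, and 79 of them were called on that scale. The adjustment covers only this chosen set, so the count of 47 describes the set and is not an independent test. Over all 31042 probe sets, limma on the linear signal called 8. Ccl2 gained 7704 signal units in tumor and 7542 in brain (adjusted p = 0.887), although its log2 response was more than 4 units larger in brain. Cdkn1a gained 4755 in tumor and 5130 in brain (adjusted p = 0.667), and G1p2 gained 1556 and 1710.0 (adjusted p = 0.985). Ccl7 gained more signal in tumor, 2474 against 1280 in brain (adjusted p = 0.0202), the opposite order of its log2 responses.

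Other brain-side responses were larger in signal units too. Gbp2 gained 2790 in tumor and 5134 in brain (adjusted p = 0.0178), Cxcl10 gained 1410 in tumor and 3529 in brain (adjusted p = 0.0145) and Sele gained 182.5 in tumor and 630.0 in brain (adjusted p = 0.0202). Timp1 gained 2094 in tumor and 3106 in brain, which did not pass (adjusted p = 0.369). The positive calls kept their order on both scales. Trib3 gained 1003 in tumor and -4.3 in brain, Klf2 661.8 and -372.2, and Abcb1a 32.4 and -241.6 (adjusted p = 0.0145, 0.0145 and 0.0202 in this order). For Klf2 and Abcb1a, only the fall in brain had passed the test by tissue on the log2 scale. Mdm2, level on the log2 scale, gained 2589 in tumor and 1248 in brain (adjusted p = 0.0145). Over all calls, the linear difference had the opposite sign to the log2 change in 24 of the 180 negative calls and in 0 of the 25 positive ones, and of the 72 negative calls with a rise in both tissues, 16 gained more signal in tumor.

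**Figure D5:**
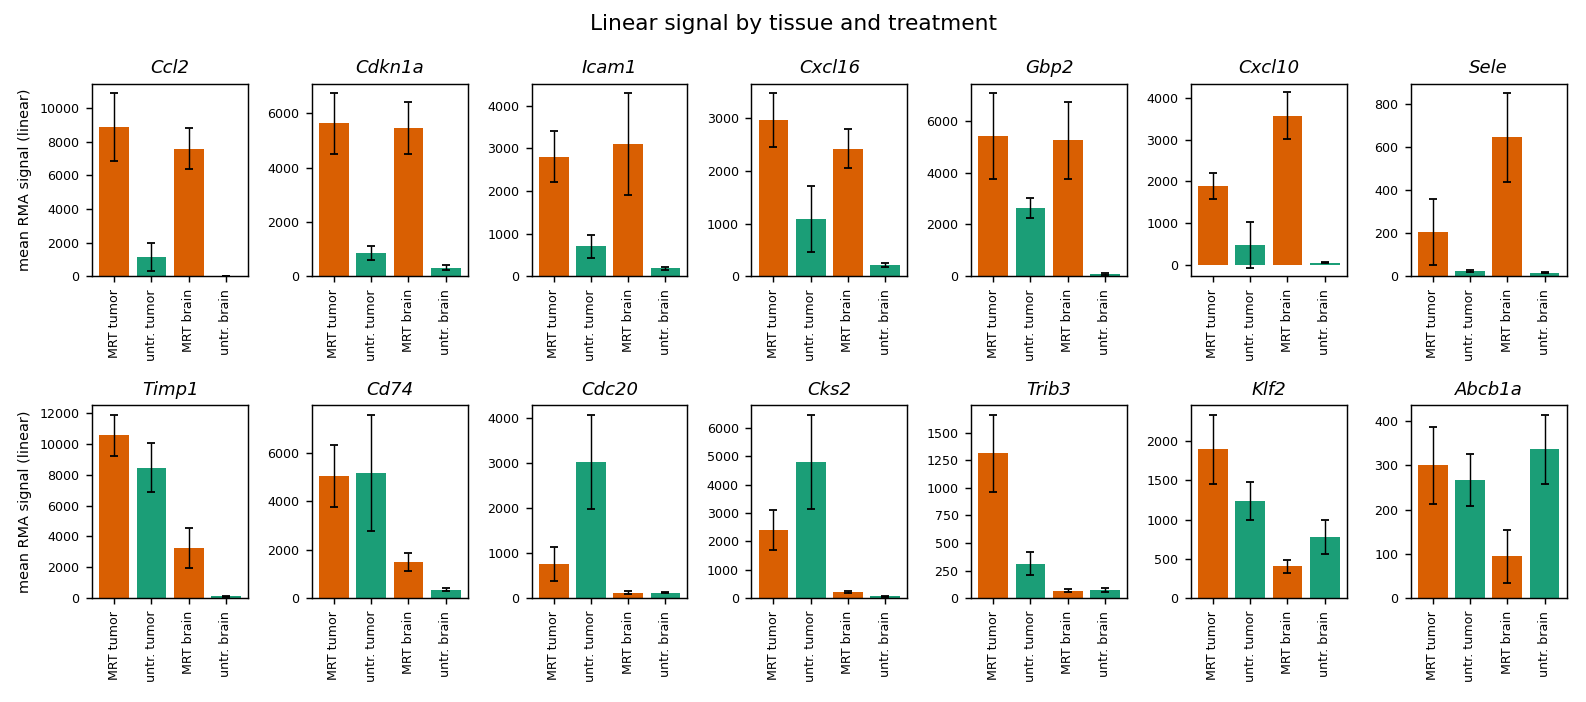
Mean linear signal of 14 named genes in MRT tumor, untreated tumor, MRT contralateral brain and untreated contralateral brain (bars, means of 6 MRT or 5 untreated rats, with error bars of 1 SD). Ccl2 averaged 8874 in MRT tumor and 1169.6 in untreated tumor, and 7583 in MRT brain and 40.6 in untreated brain, while Trib3 averaged 1315 in MRT tumor and 312.4 or less in each of the other groups.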

How the data were processed

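RNA of 22 micropunches was hybridized to Affymetrix rat genome arrays. Per the labels and the study's methods, the authors normalized the arrays with RMA (background correction, quantile normalization and probe summary) in Affymetrix Expression Console and deposited linear whole-number intensity values between 10 and 36564, without detection flags; a version was not given in the sources used here. Of 31099 probe sets, 57 controls were left out. Of the remaining 31042, 19546 carried 1 gene symbol in the deposited annotation, 372 several and 11124 none, and the symbols of 18277 probe sets were matched to current RefSeq names. The annotated table of all arrays held the same values as the 22 sample records, and no column was left unused.

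Intensities were log2 transformed with no pseudocount, and tumor minus contralateral was taken within each rat, which the titles name in both tissues. limma 3.58.1 (lmFit, eBayes, R 4.3.3) compared the 6 MRT with the 5 untreated differences, two-sided, with Benjamini-Hochberg adjustment over all 31042 probe sets. The prior and residual degrees of freedom were 4.12 and 9. The number of arrays limits the precision, and the median standard error of the change in tissue difference over all probe sets was 0.162. The responses in each tissue came from separate unpaired limma fits of 11 arrays. The study also tested each tissue unpaired, by Significance Analysis of Microarrays. All adjusted p-values are from limma, except those of linear signals, which come from an exact permutation test. Residuals of the same rat's arrays correlated with a median of 0.312 (0.097 to 0.649, 11 pairs), against -0.056 for different rats. Of the 11 tumor arrays, 5 correlated best with the contralateral array of their own rat.

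Named genes were the 12 largest called estimates in each direction, up to 4 called genes per list (or the 2 largest where none was called, by the brightest probe set), 14 set genes, and the 4 called probe sets with the largest opposite responses. There were 35 pathway and 6 marker lists. Members, lists and tests were chosen with earlier results of these data known. The fit was tested on simulated data. Promoter windows came from RefSeq (GRCr8). Alternatives were the block, filters, scaling, a floor, gene means, weights, spike-in groups and leaving out rats. Spike-in probe sets gave groups of arrays with a flat or a steep 5′ to 3′ gap, which no label names.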

Additional observations from a re-analysis of the deposited data

Results flagged for a closer look

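The change in tissue difference is itself a difference between the responses of 2 tissues, and it was called for 205 probe sets by the test of that difference.

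Among 178 groups of differences tested (the MRT or the untreated rats of a named probe set), 23 held a rat far from the others of its group, and chance alone flags about 1 in 20 groups. In 8 of the 23 the rat was MRT rat 7, in 8 untreated rat 5, in 3 untreated rat 1, in 2 MRT rat 11, in 1 untreated rat 4 and in 1 MRT rat 9. MRT rat 7 had the highest MRT difference for Timp1 (3.42), Psmb9 (3.21), Tgm2 (1.59), H2-Ea (3.52), RT1-Db1 (3.55), Ccl5 (1.38), G1p2 (1.62) and Casp1 (2.59). Over the 161 called probe sets with a brain response above 0.5, its contralateral array averaged 8.99, against 9.47 to 9.77 in the other MRT contralateral arrays.

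Untreated rat 5 had the highest untreated difference for Cxcl11 (4.13), Ccl4 (3.35), Irf8 (2.84), G1p2 (4.42), Birc3 (1.97), Atf3 (3.68), Zfp36 (1.96) and Il1b (3.73). Over the same 161 probe sets its tumor array averaged 10.04, against 9.49 to 9.88 in the other untreated tumor arrays. Untreated rat 1 was highest for Casp4 (3.74), Phlda3 (2.53) and Gadd45a (2.57), and untreated rat 4 for Fas (2.01). MRT rat 11 was highest for Irf8 (1.12) and lowest for Anxa2 (3.12), and MRT rat 9 was lowest for Nfe2l2 (0.43).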

How the results depend on the processing

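Of 205 calls (25 positive and 180 negative), the totals were 121 when a floor at the 25th percentile of the signals (58) was applied (100 negative), 8 on the linear signal (2 and 6, with 1544 at an unadjusted p under 0.05), 500 with rat weights (123 and 377), 16 within the flat spike-in group (0 and 16, with 1296 unadjusted), 50 within the steep one (5 and 45), 101 at a false discovery rate of 1% (11 and 90) and 425 without rats 5 and 7, an alternative chosen after seeing the data (74 and 351). With the spike-in group as a block in the fit of all rats, 225 were called (30 and 195), 197 of them among the 205. A change of at least 1 left 14 positive calls. Leaving out 1 rat gave 138 to 292 calls (14 to 46 positive, 119 to 246 negative), 989 to 1986 in contralateral brain (1272 with all rats) and 134 to 479 in tumor (285 with all rats; 1127 without rats 5 and 7). The cause of these shifts was not tested.

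The pairing by rat follows the titles, which name the rat in both tissues. With no replicate block, 145 probe sets were called (20 positive and 125 negative, 130 shared with the 205), and 17 of 79 called named probe sets lost their call, among them Ccl4 (adjusted p = 0.217), Ccl7 (0.244), Cxcl1 (0.217), Casp1 (0.264) and Gadd45a (0.827). With the rat as a random block, 216 were called.

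Of the 79, 56 kept their call whichever rat was left out. The floor ended 35 of these calls. On the linear signal the direction turned for Ccl2 (161.833 units, tumor minus brain), Tap2 (24.8), Ccl7 (1194.767), Tmem119 (-452.867), Cd14 (881.2), Tnfaip2 (60.133), Casp4 (110.467), Gadd45a (851.2), Hspb1 (868.8), Cd44 (174.7) and P2ry12 (-0.333). P2ry12 also turned within the flat group (-0.172), and Mdm2, between -0.063 (without untreated rat 5) and 0.148 when 1 rat was left out, turned without rats 5 and 7 too (-0.078).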

Other observations

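As for Cxcl10 and Cxcl11, among others, the tissue with the higher signal differed between the groups of rats for LOC680262 and, in most animals, for Ddx3x. LOC680262, an unnamed locus in the deposited annotation, had a difference of -0.78, -0.45 and -0.09 in MRT rats (lowest, median and highest), against 1.30, 0.97, 0.99, 0.65 and 0.38 in untreated rats. Tumor was above brain in every untreated rat and below it in every MRT rat. Its response was -0.57 in tumor (adjusted p = 0.0652) and 0.75 in brain (adjusted p = 0.000721), and the change was -1.32 ± 0.17 (limma, adjusted p = 0.00239). Ddx3x, an RNA helicase, lay below 0 in all untreated rats (-0.61, -1.17, -0.95, -0.76 and -0.55) and at -0.28, 0.29 and 0.45 in MRT rats, a change of 0.97 ± 0.17 (adjusted p = 0.0167). Neither tissue passed by itself (1.08 in tumor, adjusted p = 0.412, and 0.11 in brain, adjusted p = 0.945), and the call was lost without untreated rat 2 or 3 or MRT rat 6, 9 or 10 (up to 0.0606, without untreated rat 2). With no replicate block its adjusted p was 1.0.

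Cd14, the lipopolysaccharide co-receptor of myeloid cells, rose in both tissues (1.84 in tumor, adjusted p = 0.0431, and 3.65 in brain, adjusted p = 7.33e-07). Its change of -1.81 ± 0.39 missed the threshold (adjusted p = 0.0592) and was called without untreated rat 5 (-1.40, adjusted p = 0.0269) and without MRT rat 7 (-1.94, adjusted p = 0.0442).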
